A study of Mus musculus with 14 samples.

Results

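Voltage-gated and related ion channels set how a neuron fires, and their genes were examined here for H3K27me3, the repressive trimethylation of histone H3 at lysine 27, in mouse primary hippocampal neurons with and without knockdown of the long noncoding RNA NeuID. Members were the protein-coding genes whose symbols begin with Kcn, Scn and a digit, Cacn, or Hcn and a digit. A peak, meaning a region called as enriched for the mark, belonged to a gene when it overlapped the gene body or the 5 kb on either side. By this rule 137 channel genes were considered, 89 of them held at least 1 peak, and together they held 294 of the 23668 listed peaks, covering 172 kb. Of these peaks, 2 lay in the windows of 2 channel genes each.

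The cells were wild-type neurons cultured from late-gestation embryos of CD1 mice, with the sexes mixed. Both groups received a gapmer in lipid nanoparticles after a period in culture. Gapmers are short oligomers with a DNA core and locked-nucleic-acid ends that lead to cleavage of the RNA they pair with. The control group received a negative control gapmer and the knockdown group a gapmer against NeuID, so transfection was common to both. Each group had 6 H3K27me3 ChIP libraries, made with the Millipore antibody 07-449, and 1 input library.

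The values used here are the authors' mean of each group per peak, on a log2 scale of normalized reads. The fold, p-value and FDR of the authors' own comparison were left aside, and no values of single libraries were used. The weight of the control mean in the overall mean was 0.5455, which corresponds to 6 control and 5 knockdown libraries. No value below therefore carries a replicate error or a p-value, the depth per library is unknown, and differences are descriptions of these means. A peak is called lower or higher when the knockdown mean differs from the control mean by 1 or more on the log2 scale. A group listed at 0 had a mean of no more than 1 normalized read, and no fold is given against it. In a culture, fewer cells of a type that carries the mark and less mark per cell cannot be told apart. No RNA values were used here, so the identity of the cells was looked at only through the mark. It lay within 1 kb of a start of 2 of 8 neuronal marker genes (Rbfox3 and Nefl), 0 of 4 astrocyte, 1 of 4 oligodendrocyte (Sox10) and 1 of 4 microglial marker genes (Itgam). At Rbfox3, which encodes the neuronal nuclear marker NeuN, the peak stood at 5.47 in control. The strongest such peak stood at 5.51 at Sox10, 3.76 at Nefl and 2.90 at Itgam. The share of all protein-coding genes with a peak so near a start was not counted, so these few genes do not settle cell identity.

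H3K27me3 is deposited by Polycomb repressive complex 2, whose catalytic subunit is usually EZH2 or EZH1, and is typically found over the CpG-rich starts of genes that a cell keeps silent. Potassium channels repolarise the membrane and hold it at rest, sodium channels carry the upstroke of the action potential, and calcium channels couple voltage to transmitter release and signalling. Hcn channels carry a mixed cation current opened by hyperpolarisation. A neuron uses only some members of each family, while others serve heart, skeletal muscle, epithelia or sensory ganglia.

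The bases under the peaks show what kind of DNA carried the mark at these genes. Of 15 channel-gene promoters whose 250 upstream bases lay wholly under a peak, 66.7% held at least 10 CG pairs, with a median of 16. The 15 leave out 1 chromosome whose sequences are not shown. The same held for 40.9% of the 137 RefSeq promoters found for 101 of the channel genes (median 8) and for 37.8% of all 32851 RefSeq promoters (median 6). The letters CG read the same on both strands, and overlapping matches cannot occur. The 6 promoters shown were chosen after their values were seen. They give CG-rich starts with near-equal levels in both groups (Kcnj6, Kcns3) and CG-rich starts on either side of the limit (Kcnh8 lower, Kcns1 higher). They also give CG-poor starts (Scn4a, Kcne2), both of them internal starts that lie inside the gene and not at its 5′ end. Each run is the 250 bases upstream of the RefSeq start, 5′ to 3′ on the gene's strand in GRCm38 (mm10), with CG in capitals. The runs are free of annotated exons of protein-coding transcripts, and exons of non-coding transcripts were not checked.
Kcnj6 promoter, chr16:94997697-94997946, minus strand: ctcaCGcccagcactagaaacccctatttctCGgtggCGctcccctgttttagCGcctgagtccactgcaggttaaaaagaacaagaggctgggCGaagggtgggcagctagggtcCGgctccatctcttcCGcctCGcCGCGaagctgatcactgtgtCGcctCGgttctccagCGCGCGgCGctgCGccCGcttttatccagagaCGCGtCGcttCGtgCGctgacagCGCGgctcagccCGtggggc
Kcns3 promoter, chr12:11150374-11150623, minus strand: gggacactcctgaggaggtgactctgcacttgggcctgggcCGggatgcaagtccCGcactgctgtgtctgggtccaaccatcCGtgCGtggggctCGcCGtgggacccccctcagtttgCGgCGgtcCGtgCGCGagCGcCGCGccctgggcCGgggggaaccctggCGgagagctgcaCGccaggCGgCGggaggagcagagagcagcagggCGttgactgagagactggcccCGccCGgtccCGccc
Kcnh8 promoter, chr17:52602459-52602708, plus strand: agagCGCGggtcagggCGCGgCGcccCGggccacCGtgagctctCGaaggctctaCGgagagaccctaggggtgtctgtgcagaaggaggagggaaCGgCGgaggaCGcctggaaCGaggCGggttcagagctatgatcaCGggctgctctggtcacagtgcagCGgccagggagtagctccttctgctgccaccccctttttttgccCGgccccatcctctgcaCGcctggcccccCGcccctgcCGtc
Kcns1 promoter, chr2:164171114-164171363, minus strand: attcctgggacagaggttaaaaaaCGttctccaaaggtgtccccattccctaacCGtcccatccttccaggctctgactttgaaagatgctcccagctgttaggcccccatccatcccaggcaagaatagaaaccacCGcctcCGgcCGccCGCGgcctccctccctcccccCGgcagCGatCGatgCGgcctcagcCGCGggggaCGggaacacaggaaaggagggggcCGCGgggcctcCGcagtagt
Scn4a promoter, chr11:106349391-106349640, minus strand: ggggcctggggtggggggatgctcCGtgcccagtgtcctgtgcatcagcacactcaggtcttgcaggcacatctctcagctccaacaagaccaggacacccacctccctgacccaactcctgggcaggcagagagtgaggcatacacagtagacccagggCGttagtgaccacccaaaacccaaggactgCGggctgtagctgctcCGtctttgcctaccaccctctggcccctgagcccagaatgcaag
Kcne2 promoter, chr16:92295366-92295615, plus strand: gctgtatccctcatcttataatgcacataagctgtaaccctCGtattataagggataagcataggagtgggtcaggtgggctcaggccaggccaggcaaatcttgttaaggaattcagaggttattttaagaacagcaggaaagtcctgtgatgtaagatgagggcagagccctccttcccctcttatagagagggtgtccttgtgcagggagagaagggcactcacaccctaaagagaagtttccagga

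CG pairs numbered 26 upstream of Kcnj6, 23 upstream of Kcns3, 20 upstream of Kcnh8, 17 upstream of Kcns1, 4 upstream of Scn4a and 1 upstream of Kcne2. Kcnj6 encodes a G protein-gated inward rectifier of hippocampal neurons. Its promoter peak stood at a level of 4.61 in control and 4.30 in knockdown. Kcns3 encodes an electrically silent subunit that modifies other voltage-gated potassium channels. Its promoter peak stood at 4.53 and 4.33. Kcnh8, a gene of the ether-a-go-go-like family, was at 3.38 in control and 1.50 in knockdown, and Kcns1, another silent subunit, at 3.38 and 4.54. Scn4a, the sodium channel of skeletal muscle, was at 3.67 in control over this internal start and listed at 0 in knockdown. Kcne2, an accessory subunit, was at 2.66 and 3.26. These promoters were chosen by their CG content and levels, so they cannot show whether the difference goes with CG content.

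Most channel peaks lay away from starts, over sequence with few CG pairs. The central 200 bases of an intron peak of Scn10a, listed at 0 in control and at 3.43 in knockdown, are shown for contrast with the promoters. They held 2 CG pairs, and 10.0% of them were soft-masked as repeat in the reference.
Scn10a intron, chr9:119632692-119632891, plus strand: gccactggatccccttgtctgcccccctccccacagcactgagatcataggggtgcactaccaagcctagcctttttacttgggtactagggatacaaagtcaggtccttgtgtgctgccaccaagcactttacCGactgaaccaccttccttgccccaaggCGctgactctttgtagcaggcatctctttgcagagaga

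Channel genes held listed peaks more often than protein-coding genes in general. At least 1 peak was found for 65.0% of them (Wilson 95% interval 56.7 to 72.4%, counting error only), against 27.9% of the 22027 protein-coding genes taken with the same window. Channel genes were longer, with a median window of 51.8 kb against 27.3 kb. The shares were 47.8% against 21.0% for windows under 30 kb, 63.6% against 28.9% for 30 to 100 kb and 83.0% against 54.7% for longer windows. Length was not matched within these groups, whose median windows were 19.6 against 17.0 kb, 51.1 against 47.1 kb and 259 against 166 kb. Peaks numbered 16.3 per Mb of channel-gene window and 11.2 per Mb over all protein-coding windows. No peak was listed for 48 channel genes, among them Scn2a and Scn3a, sodium channels of central neurons, Kcna2, Kcnd2 and Kcnc1, which shape repolarisation, and Hcn2. The 48 also held genes best known from other tissues, such as Kcnj1, Kcna10, Scn7a and Hcn4. In the 2 lists compared below, peaks were held by 74.6% of the hippocampal genes and 55.6% of the others. The list holds called peaks only, so a gene without one may still have carried the mark below the calling limit.

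Of the 294 channel peaks, 33 overlapped a start of the channel gene and 28 lay within 1 kb of one. Starts were those of annotated protein-coding transcripts, some of which begin well inside a gene, and starts of non-coding transcripts were not counted. These 61 promoter peaks made up 20.7% (16.5 to 25.7%). Within 1 kb of a start of any protein-coding gene lay 23.1% of channel peaks (18.7 to 28.3%) and 13.7% of all listed peaks (13.3 to 14.2%). Introns held 154 channel peaks (52.4%), coding exons 37, non-coding exon parts 3, and the upstream and downstream flanks 19 and 20. Promoter peaks were wider than the rest, with a median of 746 bp against 419 bp. Their median ratio of observed to expected CG was 0.61 against 0.21, and their median GC content 58.8% against 52.0%. The median control level was 3.99 at promoter peaks and 2.91 elsewhere, while per kb of peak the control held 22.4 and 19.4 normalized reads.

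Knockdown and control levels lay close over the channel peaks as a set. The median difference, knockdown minus control, was 0.01 on the log2 scale, and it was −0.02 over all listed peaks. The middle 50% of channel peaks ran from −0.74 to 0.68, and of all peaks from −0.80 to 0.77. Values were below 0 at 146 channel peaks and above 0 at 148. At 53 channel peaks (18.0%, 14.1 to 22.8%) the mark was lower and at 54 (18.4%, 14.4 to 23.2%) higher, beside 20.6% lower and 20.4% higher of all listed peaks. Both intervals include the share over all listed peaks. Normalized reads summed over the channel peaks came to 3511 in control and 3396 in knockdown, or 96.7% of control, against 97.1% over all listed peaks. In these sums and in those of single genes a group listed at 0 counts as 1 read.

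**Figure D1:**
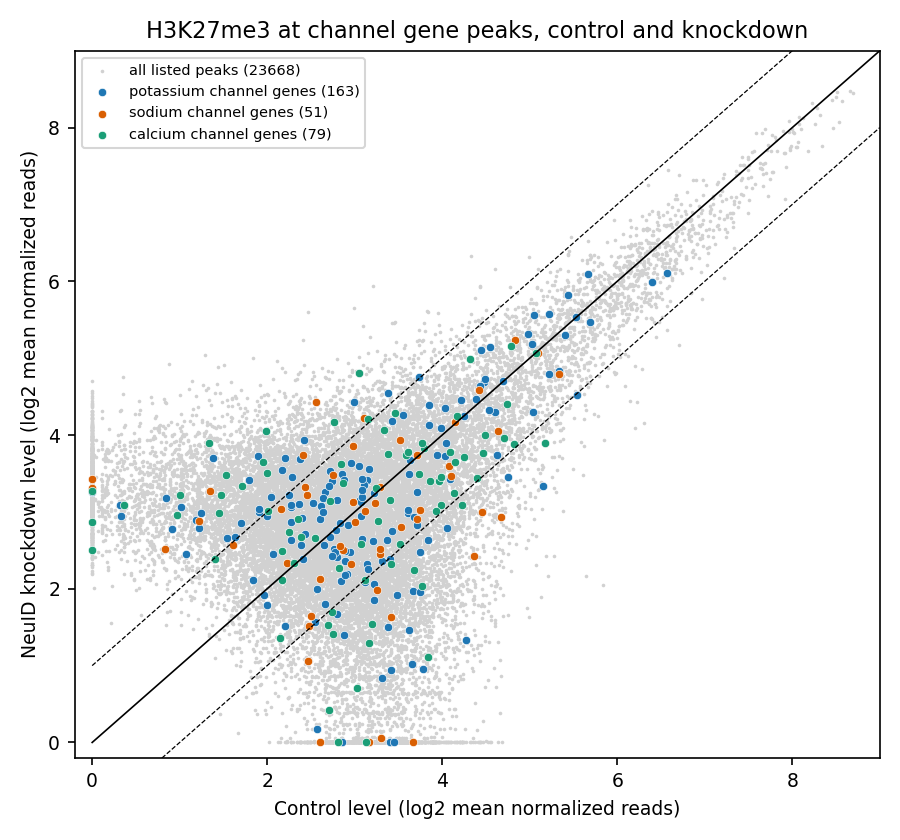
Level of H3K27me3 at each peak in control (horizontal axis) and NeuID knockdown (vertical axis), both as log2 mean normalized reads. Grey points are all 23668 listed peaks, coloured points the channel peaks by ion (163 potassium, 51 sodium, 79 calcium), the solid line marks equal levels and the dashed lines a difference of 1. Channel peaks lie throughout the grey cloud, and the points spread more widely at low levels.

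The large differences lay mainly at weak peaks. Of the 53 channel peaks whose equal-weight mean of both groups reached 4, 5 were lower (9.43%) and 3 higher (5.66%), beside 8.21% and 5.92% of all listed peaks of that strength. Of the 241 weaker channel peaks 48 were lower (19.9%) and 51 higher (21.2%), beside 22.7% and 22.8% of all weaker listed peaks. The mark was listed at 0 in knockdown at 9 channel peaks and in control at 7, together 5.44% (3.38 to 8.66%) against 6.64% of all peaks. Without them 44 channel peaks were lower and 47 higher.

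Most of the widest channel peaks stayed within the limit. There were 7 of 2 kb or more, all at potassium channel genes, and their differences ran from −1.03 to 0.43. Shares over all listed peaks of that width were not counted. At a width of at least 1 kb, 11.4% of channel peaks were lower and 2.86% higher, beside 7.91% and 5.08% of all listed peaks. The peak inside Kcnk4, the mechanically gated tandem-pore channel TRAAK, spanned 3514 bp and stood at 6.56 in control and 6.10 in knockdown. It also holds the start of the neighbouring gene Catsperz. The peak over the start of Kcnk9, an acid-sensitive leak channel, spanned 3132 bp and stood at 6.40 and 5.99. Over starts, Kcnj5 had 5.69 and 5.47, Kcnc2 5.22 and 5.57, and Kcng2 5.66 and 6.09. The peak over coding sequence of Kcna7 had 5.53 and 5.54. Only the peak over coding sequence of Kcns1 reached the limit, at 5.54 in control and 4.52 in knockdown.

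Among the ions, potassium channel genes (60 of 93 with a peak) held 163 peaks, of which 27 were lower and 28 higher, with a median difference of 0.04. Calcium channel genes (19 of 26) held 79, of which 16 were lower and 17 higher, with a median of −0.01. Sodium channel genes (9 of 14) held 51, of which 10 were lower and 8 higher, with a median of −0.14. Summed reads in knockdown were 98.1% of control for potassium, 96.8% for calcium and 90.1% for sodium channel genes. The shares of lower peaks, 16.6%, 20.3% and 19.6%, and of higher peaks, 17.2%, 21.5% and 15.7%, all lay within 5 percentage points of the share over all peaks.

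Class medians lay on both sides of 0. The voltage-gated potassium alpha subunits, which form the pore, had a median difference of 0.10 over 69 peaks, with 10 lower and 10 higher. Potassium auxiliary subunits, which were not split by the channel they serve, had 0.35 over 26 peaks, with 3 lower and 7 higher, and summed reads at 125% of control. The calcium- or sodium-activated channels had 0.23 over 18 peaks, with 3 lower and 2 higher. Inward rectifiers had −0.31 over 23 peaks, with 6 lower and 6 higher, and 84.8% of control reads. Tandem-pore leak channels had −0.20 over 27 peaks, with 5 lower and 3 higher, and 86.2% of control reads. Lower peaks made up 11.5 to 26.1% of these 5 classes and higher peaks 11.1 to 26.9%, beside 20.6% and 20.4% of all listed peaks. Each of the medians lay inside the middle 50% of all listed peaks.

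The pore-forming and auxiliary classes of sodium and calcium channel genes had medians on opposite sides of 0, which for calcium channel genes depended on the peaks taken. Sodium alpha subunits had −0.27 over 39 peaks, with 9 lower and 5 higher, while sodium beta subunits had 0.09 over 12 peaks, with 1 lower and 3 higher. Scn4b alone held 11 of those 12 peaks, with summed reads at 110% of control. Scn2b, whose window overlaps that of Scn4b, held 2 peaks at −0.77 and −0.63, with 62.5% of control reads. The beta median therefore mostly reflects Scn4b. Calcium alpha1 subunits had −0.32 over 26 peaks, with 8 lower and 6 higher, while the calcium auxiliary class had 0.08 over 53 peaks, with 8 lower and 11 higher. That class was grouped by symbol (Cacna2d, Cacnb and Cacng), so it need not hold partners of calcium channels alone. Cacna2d2 alone held 36 of those 53 peaks, and without it the median over the other 17 was 0.37. The auxiliary median was below 0, like that of alpha1, at peaks with a mean of at least 4 (−0.49 over 11 peaks), at promoters (−0.75 over 3) and by nearest start (−0.32 over 56). Lower peaks made up 8.33 to 30.8% of these 4 classes and higher peaks 12.8 to 25%, beside 20.6% and 20.4% of all listed peaks. Summed reads were 83.9% and 106% of control for the sodium pair and 88.4% and 99.8% for the calcium pair. Without a replicate error these gaps could not be set against the spread between libraries.

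**Figure D2:**
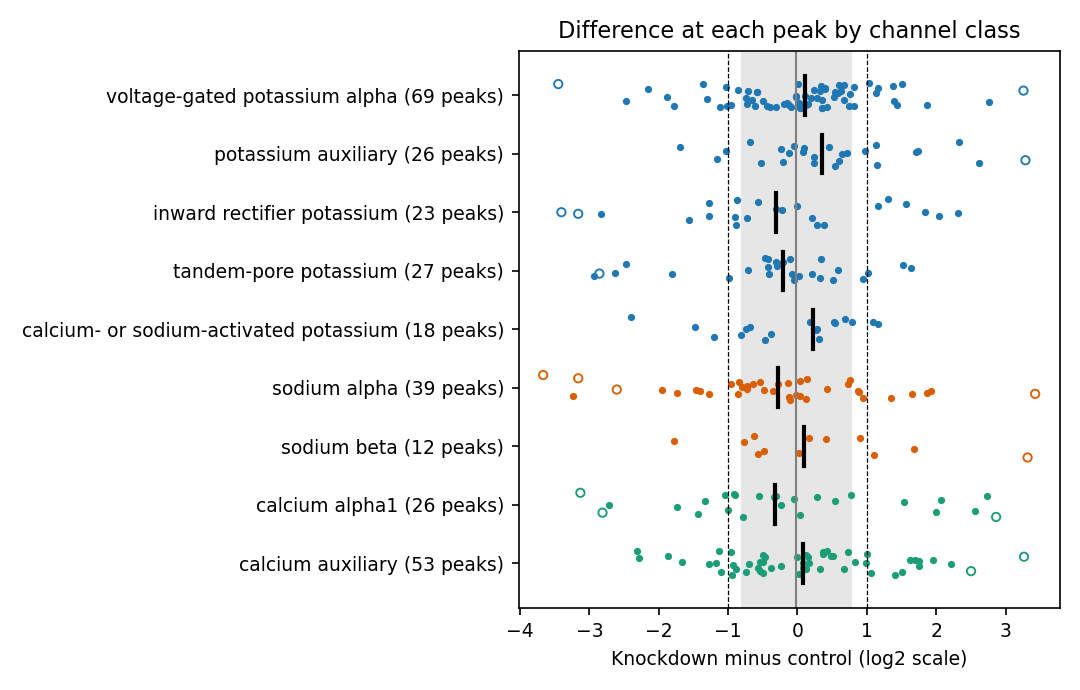
Knockdown minus control on the log2 scale for the peaks of the 9 potassium, sodium and calcium channel classes, with open circles for peaks listed at 0 in a group and vertical jitter for legibility. Black bars are class medians, the grey band is the middle 50% of all listed peaks (−0.80 to 0.77), the grey line their median and the dashed lines the limit of 1. The 9 class medians lie inside the grey band.

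Marked sequence was unevenly shared among the channel genes. The 10 genes with the most reads held 44.6% of all channel-peak reads, and their knockdown sums ran from 75.7 to 132% of control. Cacna2d2, which encodes an alpha2-delta auxiliary subunit of calcium channels (chr9:107399612-107529343, plus strand), held 36 peaks over 24.6 kb, or 12.2% of all channel peaks. Its summed reads were 529 in control and 508 in knockdown, 96.1%. Per kb of peak the mark held 21.5 normalized reads in control and 20.7 in knockdown, near the mean of all listed peaks, 21.3 and 20.7. Its many peaks, and not a high level per kb, placed it first.

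Along Cacna2d2 neighbouring peaks differed in sign. Of its peaks 29 lay in introns, 4 over coding exons and 3 at the promoter. The peak over the start had 4.71 in control and 3.96 in knockdown, the one just upstream 4.39 and 3.44, and the one just downstream 4.78 and 5.16. Deeper in the gene, 4 peaks were lower and 6 higher, and 26 of the 36 stayed within the limit. An intron peak of 1525 bp had 5.18 in control and 3.90 in knockdown. Another, of 532 bp, had 3.05 and 4.81. A peak over coding sequence near the end of the gene had 1.95 and 3.65.

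**Figure D3:**
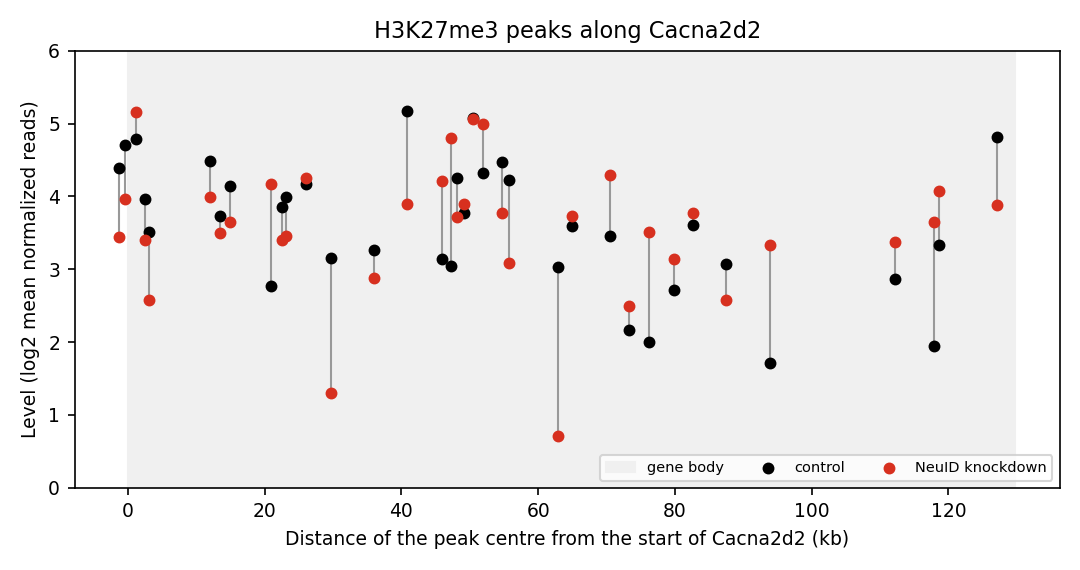
Levels of the 36 peaks of Cacna2d2 by distance of the peak centre from the gene's start in kb, with control in black and NeuID knockdown in red as log2 mean normalized reads. Grey lines join the values of a peak and the shaded band is the gene body; red lies above black at 17 peaks and below it at 19.

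The sums of the other genes among the 10 lay on either side of control. Kcna7, a voltage-gated potassium channel known from muscle, held 7 peaks with 175 reads in control and 194 in knockdown (111%). Scn4b, a sodium beta subunit, held 11 peaks with 147 and 162 reads (110%). Kcnip1, a cytosolic partner of A-type potassium channels, held 11 peaks with 65.9 and 87.0 reads (132%), and Kcng2, a silent potassium channel subunit, 5 peaks with 90.3 and 110 reads (122%). Lower sums were found for the tandem-pore genes Kcnk4 (75.7% of control, 3 peaks), Kcnk15 (75.9%, 4 peaks) and Kcnk9 (76.7%, 2 peaks).

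Scn10a and Scn11a encode sodium channels of pain-sensing neurons. Scn10a held 10 peaks with 83.6 reads in control and 82.8 in knockdown (99.0%), of which 1 was lower and 2 higher. Scn11a held 3 peaks, of which 2 were listed at 0 in knockdown, against control levels of 2.60 and 3.16.

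Within a gene the direction was seldom shared. Of the 20 genes with 5 or more peaks, which held 169 peaks, 0 had all their peaks on the same side of 0, and 14 had both a lower and a higher peak. Neighbouring peaks of a gene had the same sign in 108 of 207 pairs (52.2%). By summed reads 47 genes were below control and 42 above, with a median of 99.0%. Sums at or below 50% of control were found for 5 genes and at or above 200% for 11. Of these 16 genes, 10 had 1 peak, 4 had 2 peaks and none had more than 3. Among them were Scn9a (25.5 reads in control, 7.64 in knockdown, 1 peak), Kcnc4 (39.1 and 18.9, 2 peaks), Cacna1d (12.1 and 24.9, 3 peaks) and Cacnb3 (6.92 and 19.2, 2 peaks). Cacna1h and Cacng4, each with 1 peak listed at 0 in a group, also count among the 16. How many other protein-coding genes passed 50% or 200% was not counted, so these numbers are not read as particular to channel genes.

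**Figure D4:**
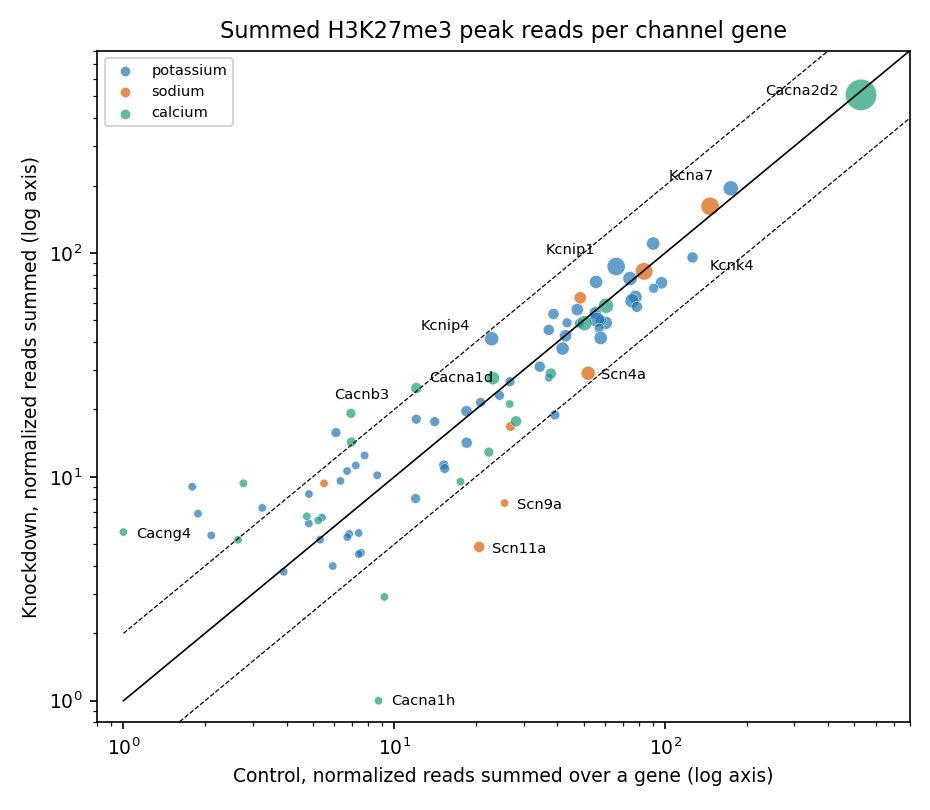
Normalized reads summed over the peaks of 86 of the channel genes with a peak, control against NeuID knockdown, both on log axes, coloured by ion and with larger points for genes with more peaks. The solid line marks equal sums and the dashed lines 50% and 200% of control; a group listed at 0 is drawn at 1 read. Genes with large sums lie near the solid line, and the 15 drawn genes on or beyond the dashed lines have at most 3 peaks.

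Among peaks present in both groups with an equal-weight mean of at least 3, the 6 lowest differences came from different families, and 5 of them are given here. An intron peak of Kcnk3, an acid-sensitive leak channel, had 4.27 in control and 1.34 in knockdown. One in Cacna1c, the main L-type calcium channel of brain and heart, had 3.84 and 1.12. One upstream of Kcnk15 had 5.15 and 3.34, and a coding-exon peak of Kcnh3 3.74 and 1.96. The peak of 1107 bp over the start of Scn9a, a sodium channel of peripheral sensory neurons, had 4.67 and 2.93. It was the only peak of that gene and the only one of the 6 at a promoter.

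The 6 highest differences also came from several families. An intron peak of Cacna1d, an L-type calcium channel, had 1.33 in control and 3.90 in knockdown. An intron peak of Cacna1i, a T-type channel, had 1.99 and 4.06. One downstream of Scn8a, the sodium channel of the axon initial segment, had 2.56 and 4.43, while a wider peak beside it stood at 5.09 and 5.07. The peak over the start of Kcnj11, the pore of ATP-sensitive potassium channels, had 1.89 and 3.72. The other 2 were the Cacna2d2 peaks at 3.05 and 1.95 in control given above.

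Peaks listed at 0 in 1 group had modest levels in the other. In knockdown these were led by an internal start of Scn4a (3.67 in control), an intron of Kcnc2 (3.45) and the downstream flank of Kcnj11 (3.40). In control they were led by introns of Scn10a (3.43 in knockdown), Scn4b (3.32) and Kcnip1 (3.29). Kcnj11 thus had a start peak that was higher and a flank peak that was listed at 0 in knockdown. Kcnc2, a potassium channel of fast-spiking interneurons, had its start peak at 5.22 and 5.57 beside the intron peak listed at 0.

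Promoter peaks were examined apart because the mark at starts is the best understood. Of 61 such peaks, at 44 genes, 9 were lower (14.8%) and 6 higher (9.84%), beside 13.8% and 15.0% of the 3250 listed peaks within 1 kb of a protein-coding start. Their median difference was 0.02 and their summed reads were 93.5% of control. The promoter peaks of 9 genes all differed by 1 or more in the same direction. Those of Scn4a, Scn9a, Kcnc4, Kcnh8, Kcna5 and Cacna1h were lower, and those of Kcnj11, Kcns1 and Kcnh4 higher. Each of the 9 genes had 1 promoter peak.

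Promoter peaks of a gene could also differ from each other. Kcnj8, the ATP-sensitive channel subunit of vascular smooth muscle, had 3, with 4.62 in control and 3.74 in knockdown, 3.78 and 0.95, and 3.75 and 2.47. Kcna1, which encodes an axonal potassium channel, had 3.42 and 0.95 over its start and 4.21 and 4.45 at the neighbouring peak. Kcng1 had 5.33 and 4.84 over its start and 2.16 and 3.55 beside it.

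A list of 59 channel genes known from hippocampal neurons was set beside a list of 36 best known outside the central neuron. Peaks were held by 44 of 59 (74.6%, 62.2 to 83.9%) and by 20 of 36 (55.6%, 39.6 to 70.5%), and promoter peaks by 16 of 59 (27.1%, 17.4 to 39.6%) and 12 of 36 (33.3%, 20.2 to 49.7%). Over the 152 peaks of the hippocampal list the median difference was 0.09, with 27 lower and 35 higher and summed reads at 102% of control. Over the 75 peaks of the other list it was −0.22, with 17 lower and 9 higher and 87.5% of control. Shares of lower peaks were 17.8% and 22.7% and of higher peaks 23.0% and 12.0%, beside 20.6% and 20.4% of all listed peaks. The lists were drawn up with results of these data known, and the gap between them was not tested.

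On the hippocampal list the promoter peaks with the most control reads, not scaled by width, were at Kcnk9, Kcnc2 and Scn4b. Scn4b had 4.83 in control and 5.23 in knockdown over its start. Of 22 promoter peaks 3 were lower and 0 higher, with a median of −0.11, beside 13.8% lower and 15.0% higher of all listed promoter peaks. The 3 were at Kcnc4, a rapidly inactivating potassium channel (4.75 and 3.45), the start of Kcna1, and Cacna1h, a T-type calcium channel (3.13 and listed at 0). The other T-type genes had 4.74 and 4.40 (Cacna1g) and, over the start, 3.40 and 3.16 (Cacna1i). The presynaptic N-type gene Cacna1b had 4.09 and 3.77 near its 5′ end, and 3.79 and 3.83 over an internal start near its 3′ end. Kcnt1, a sodium-activated channel, had 3.14 and 3.42 over an internal start, and Kcnn1, a small-conductance calcium-activated channel, 2.96 and 3.64. Kcnj3, the partner of Kcnj6, had 2.43 and 2.72, and Kcnip4 2.64 and 3.18 over an internal start.

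The list best known outside the central neuron held 17 promoter peaks. Of these, 4 were lower and 2 higher, with a median of −0.32, beside the same 13.8% and 15.0%. The start of Kcnj5, an atrial inward rectifier, had the most control reads, with levels given above. Kcnk6 had 5.22 and 4.79. Kcne3 had 4.38 and 4.47 over an internal start, and Kcna5, an atrial potassium channel, 2.79 and 1.67.

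**Figure D5:**
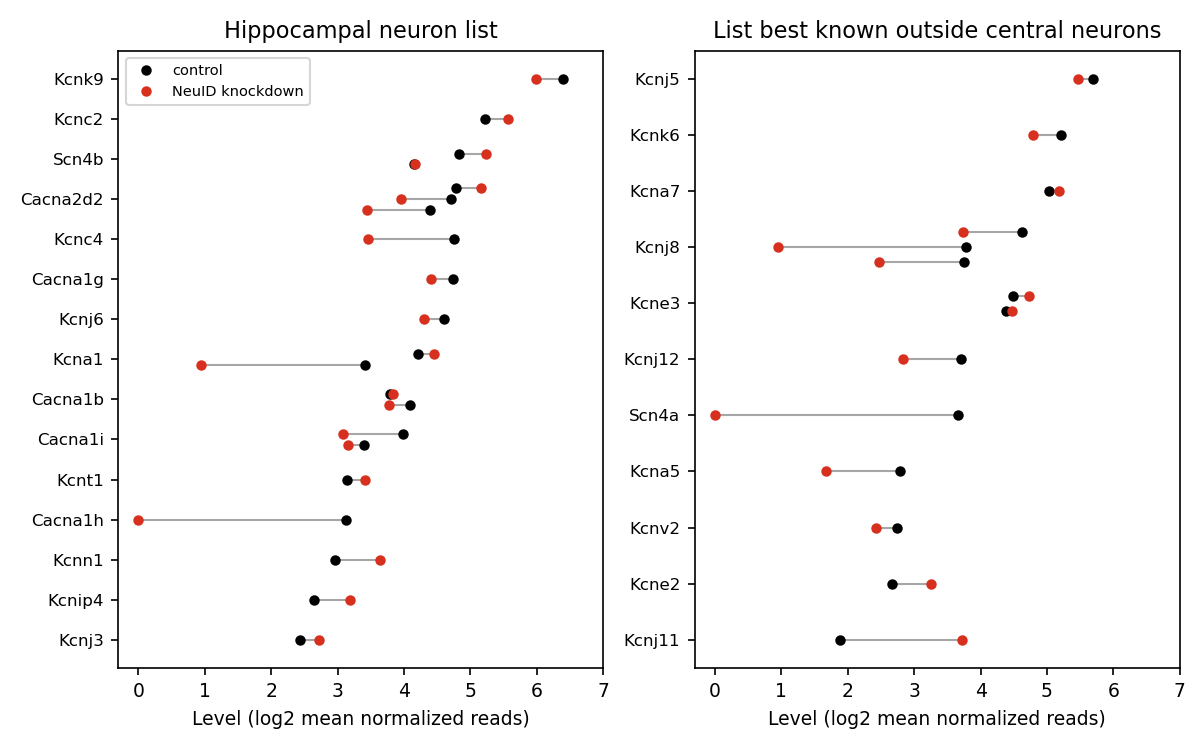
Levels of the promoter peaks of genes on both lists, as log2 mean normalized reads on the horizontal axis. The left panel shows the hippocampal list (15 genes, 21 peaks drawn). The right panel shows the list best known outside the central neuron (11 genes, 14 peaks drawn). Black points are control, red points NeuID knockdown, and grey lines join the values of a peak; the left panel has 3 peaks lower and 0 higher by the limit of 1, the right panel 4 and 1.

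The leading genes of other classes had moderate sums. Kcnma1, the large-conductance calcium-activated channel, had the most reads of its class, with 7 peaks and 56.0 reads in control against 50.3 in knockdown (89.9%), 2 of them lower and 0 higher. Kcnj8 led the inward rectifiers with 75.5 and 61.1 reads over 6 peaks. Cacna1i led the calcium alpha1 subunits with 60.5 and 58.1 reads over 7 peaks.

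Related genes outside these families were counted with the same window. Other cation and chloride channel genes had a peak in 26 of 53 cases, and their 81 peaks had a median difference of 0.16, with 13 lower and 20 higher. Glutamate, GABA and glycine receptor genes had a peak in 29 of 51 cases, and their 155 peaks had a median of −0.07, with 32 lower and 29 higher. Their shares of lower peaks, 16% and 20.6%, and of higher peaks, 24.7% and 18.7%, stood beside 20.6% and 20.4% of all listed peaks. Summed reads were 115% and 97.9% of control.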

How the data were processed

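The labels describe H3K27me3 ChIP-seq of primary hippocampal neurons. The authors aligned single-end reads to mm10 (Bowtie2), took broad peaks from MACS2 and counted reads per group in DiffBind; how reads were normalized, whether input was subtracted and how peaks were merged is not given in the sources used here. Subtraction would weigh most on weak peaks. The deposited values used are log2 means of normalized reads per peak for each group, as made by the authors. Columns of the authors' own comparison (fold, p-value and FDR) were not used, and 0 further per-sample columns were left out.

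The difference was computed as knockdown minus control, and linear reads as 2 to the power of each mean. Genes came from GENCODE M21, and 1 gene of these families was left out; 3 others enter counts but are not reported here by name. All 23642 peaks on chromosomes lay inside GRCm38, and 26 lay on scaffolds. Peaks at promoters lay within 1 kb of the start of an annotated protein-coding transcript. Sequences came from GRCm38, with starts from RefSeq; CG content was counted per peak. Wilson intervals (95%) cover counting error only. Scripts (Python 3.11.15, pandas 2.3.3, SciPy 1.17.1, pysam 0.24.0) were tested on simulated data. Genes were named by fixed rules: the 10 with the most reads, the 6 lowest and 6 highest differences among peaks with a mean of at least 3, the 3 highest peaks with a group at 0 in each direction, the leading gene of each class, hippocampal genes with a promoter peak, and genes whose promoter peaks all differ by 1 or more in the same direction. Others were chosen after their values were seen. The members, lists and rules were chosen with earlier results of these data known. Alternatives were other windows, strengths, widths, limits, centring and scales.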

Additional observations from a re-analysis of the deposited data

How the results depend on the processing

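No paired analysis was possible because each peak carries only a mean per group, and for the same reason leaving out a replicate was not possible. Over 12 alternatives 135 values were recomputed, of which 46 moved by more than a tolerance: the Wilson interval for a share, 0.1 on the log2 scale for a median and 5 percentage points for summed reads. Leaving out Cacna2d2 was chosen after seeing the data and moved 1 class median, that of the calcium auxiliary class, from 0.08 to 0.37. Summed reads moved under none of the alternatives that gave them.

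The lower share of 18.0% moved to 9.43% at a mean of at least 4, 11.4% at a width of at least 1 kb, 30.3% at a limit of 0.58 and 6.80% at a limit of 2. The higher share of 18.4% moved to 5.66%, 2.86%, 28.2% and 5.78% in the same order, and to 9.84% at promoter peaks alone. Over all listed peaks the same settings gave 8.21, 7.91, 30.9 and 8.61% lower and 5.92, 5.08, 29.9 and 8.45% higher, so most of these moves were shared by all peaks. The median over channel peaks was −0.10 with peaks given to the nearest protein-coding start. The sodium median of −0.14 became −0.026 at a mean of at least 4, −0.28 at 1 kb or wider, −0.25 in gene bodies alone and 0.016 at promoters. The calcium median of −0.01 became −0.41 at a mean of at least 4, −0.15 with a 10-kb window, −0.34 at promoters and −0.34 by nearest start. The potassium median became 0.16 at 1 kb or wider. The cause was not tested. Of 71 recomputed class medians 27 moved, so the sign of a class median should not be read as stable. The number of libraries behind the means limits all of these values, and their spread is unknown.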
